A study of Mus musculus with 10 samples.

Results

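The 35 genes described here carry sugar through glycolysis and the pentose phosphate pathway or belong to the cell's response to low oxygen. The list was given by name and was chosen with earlier results of these data known. Shares of it that rose or fell are therefore a description and not a test of the list. Each gene was read from the array probe set annotated to that gene alone, taking the probe set of highest mean where a gene had several. By this rule 32 of the 35 were measured among 18193 genes. Gapdh, Gpi1 and G6pdx had no probe set of their own in the annotation used and were not analysed among them.

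Glycolysis splits glucose into pyruvate, which is either reduced to lactate and exported or passed to the mitochondria. The pentose phosphate pathway branches off at the first phosphorylated sugar and yields NADPH and ribose for nucleotides. When oxygen is plentiful, prolyl hydroxylases mark the hypoxia-inducible factor HIF for destruction through the VHL protein. When oxygen is scarce, HIF persists, binds a short core motif in its target genes and raises many glycolytic enzymes. The colon is known for a low oxygen pressure near the lumen, and activated immune cells are known for rapid glycolysis.

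Expression was measured in whole distal colon of 10 Rag1-/- mice on the C57BL/6 background, 1 array per mouse. Severe (n = 3) and moderate (n = 3) colons came from mice given naïve T cells, the cells that start colitis in the T-cell transfer (TCT) model, and both sets are called inflamed when pooled. Control colons (n = 4, not inflamed) came from mice given regulatory T cells (Tregs), so that these too had received a transfer and were not untreated. All mice were injected at 10 weeks of age, colons were taken 2 to 3 months later at an age of 4 to 5 months, and every host lacked T and B cells of its own.

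Values are RMA log2 values, on which a difference of 1 is a doubling, and levels of different genes cannot be set against each other on this scale. Array medians lay between 5.36 and 5.40. The summed signal of 14 colon epithelial marker genes, on the log2 scale, was 16.66 to 16.93 in severe, 16.87 to 17.02 in moderate and 16.95 to 17.02 in control colons. Of the 14, 3 were higher and 3 lower in inflamed against control colons. Summed neutrophil markers, on the same scale, were 13.46 to 14.65 in severe, 11.45 to 13.63 in moderate and 7.61 to 8.44 in control colons, and 8 of 9 measured rose. Summed macrophage and monocyte markers were 13.34 to 14.60 in severe, 13.19 to 14.32 in moderate and 11.67 to 11.91 in control colons (11 of 12 rose), and summed T cell markers were 9.92 to 10.56, 9.85 to 10.58 and 9.12 to 9.24 in the same order (8 of 10 rose). Summed muscle markers were 13.35 to 13.66 in severe, 13.39 to 14.21 in moderate and 15.13 to 15.54 in control colons, with 11 of 13 lower and none higher. Summed markers of dividing cells were 13.32 to 13.69 in severe, 13.16 to 13.73 in moderate and 13.06 to 13.23 in control colons, with 7 of 11 higher and a median difference of 0.68 in inflamed against control colons. Fibroblast markers (4 of 8 lower, 1 higher) and endothelial markers (5 of 8 lower) also moved, and the part of dividing cells and of these other cells in the values of the genes described here was not tested. In such whole-tissue RNA, a change in the number of cells of a type and a change in RNA per cell cannot be told apart.

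Most of these genes were higher in the inflamed colon. In inflamed against control colons, 23 of the 32 rose, 4 fell (Eno3, Ldhb, Slc16a1 and Slc37a2) and 5 did not pass the test (Pfkl, Vhl, P4ha2, Ndrg1 and Taldo1), by limma with a Benjamini-Hochberg adjusted p under 0.05. Over all 18193 genes, 18.5% rose and 21.2% fell by the same test. The median log2 difference was 0.61 over the 32 genes and 0.03 over all genes. Of the 32, 10 rose and 2 fell by at least 2-fold, against 3.5% and 4.6% of all genes. The 6 inflamed values lay entirely above the 4 control values in 23 of the 32 genes and entirely below them in 3, where 14.6% and 17.1% of all genes were so separated.

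**Figure D1:**
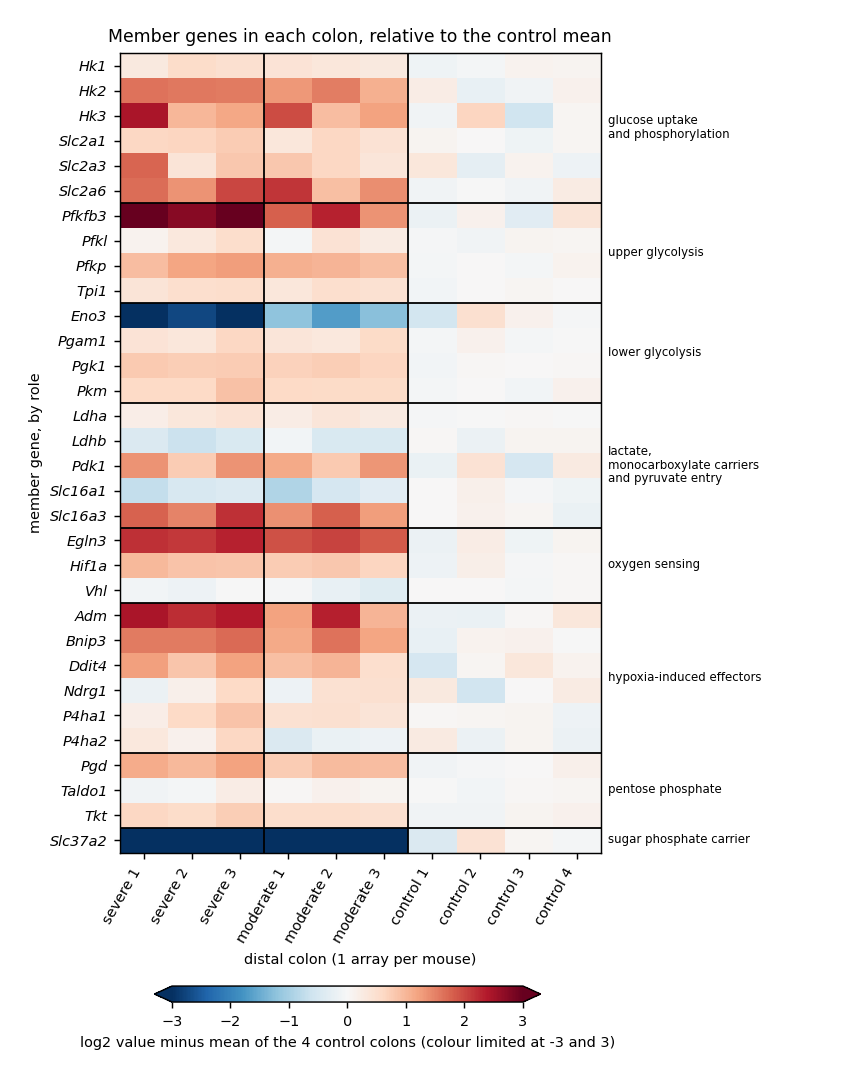
Heat map of the 32 measured genes (rows, grouped by role) in 10 colons (columns: 3 severe, 3 moderate, 4 control), coloured by log2 value minus the mean of the 4 control colons, with colours limited at -3 and 3. Red, higher than the control mean, fills most rows of the 6 inflamed colons, while Eno3, Ldhb, Slc16a1 and Slc37a2 are blue there.

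**Figure D2:**
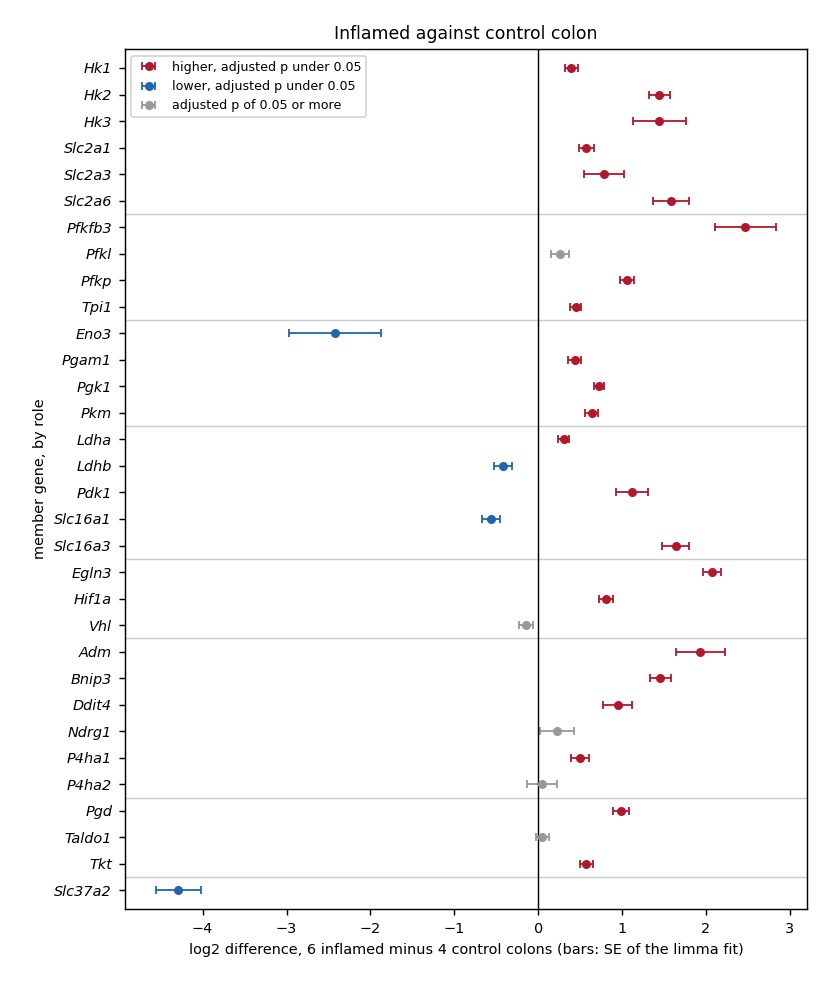
Log2 difference of 6 inflamed minus 4 control colons for each of the 32 genes, ordered by role. Points are limma estimates, bars are their SE, and colour gives the call at an adjusted p of 0.05. The 23 red genes lie between 0.30 (Ldha) and 2.47 (Pfkfb3), and the 4 blue ones between -4.29 (Slc37a2) and -0.42 (Ldhb).

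All 6 genes of glucose uptake and phosphorylation rose, by 0.40 (Hk1) to 1.58 (Slc2a6) on the log2 scale, and none of them overlapped between inflamed and control colons. Glucose enters cells through carriers of the Slc2a family and is trapped inside by the hexokinases. Slc2a6, a sugar carrier of intracellular membranes, read 6.31, 5.97 and 6.64 in severe, 6.78, 5.52 and 6.03 in moderate, and 4.52, 4.61, 4.51 and 4.86 in control colons. The highest value was in a moderate colon, and no inflamed colon came down to the control range. Slc2a6 rose 3.00-fold (log2 difference 1.58, SE 0.21, limma adjusted p = 0.000123).

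Hk2, the inducible hexokinase bound to mitochondria, read 13.02, 12.98 and 12.95 in severe, 12.68, 12.92 and 12.47 in moderate, and 11.60, 11.16, 11.28 and 11.51 in control colons. The severe values lay close together and above every moderate value. Hk2 rose 2.72-fold (log2 difference 1.45, SE 0.12, limma adjusted p = 8.04e-06). Hk3, the hexokinase of myeloid cells, read 8.48, 7.02 and 7.19 in severe, 8.0, 6.96 and 7.25 in moderate, and 5.93, 6.67, 5.45 and 6.09 in control colons. Hk3 rose 2.73-fold (log2 difference 1.45, SE 0.31, limma adjusted p = 0.00314; 0.94 on its other probe set), and the lowest inflamed colon exceeded the highest control colon by little. The highest values of Hk3 were in severe colon 1 and moderate colon 1, which also had the highest macrophage sums, 14.60 and 14.32. The part of infiltrating myeloid cells in the rise of Hk3 was not tested.

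Slc2a1, the general glucose carrier GLUT1, rose by 0.57 (SE 0.09) and Hk1, the hexokinase of most tissues, by 0.40 (SE 0.08) on the log2 scale, both outside the control range in every inflamed colon. Slc2a3, the high-affinity carrier GLUT3 of neurons and white blood cells, rose by 0.79 (SE 0.24, limma adjusted p = 0.0215). Its severe values were 7.84, 6.47 and 6.90, its moderate values 6.91, 6.71 and 6.44, and its control values 6.43, 5.81, 6.19 and 5.93, so that the lowest inflamed and the highest control colon were nearly level. The call for Slc2a3 was lost without control replicate 2 (adjusted p = 0.0672) or without control replicate 4 (adjusted p = 0.0594). For Hk1, a brighter probe set shared with another gene gave -0.09 in place of 0.40 when shared probe sets were admitted.

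In upper glycolysis, where the phosphorylated sugar is charged again and split, 3 of 4 measured genes rose and the strongest rise of all 32 was found. Pfkfb3 makes and degrades fructose bisphosphate of the regulatory kind, the activator of phosphofructokinase, with its kinase side far stronger. It read 9.03, 8.42 and 8.99 in severe, 7.48, 7.98 and 7.02 in moderate, and 5.51, 5.81, 5.34 and 6.07 in control colons. The 3 groups did not overlap anywhere, with severe above moderate and moderate above control. Pfkfb3 rose 5.55-fold in inflamed against control colons (log2 difference 2.47, SE 0.36, limma adjusted p = 0.000239). A dimmer probe set of Pfkfb3 differed by 0.26.

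Pfkp, the platelet type of phosphofructokinase, read 11.37, 11.65 and 11.71 in severe, 11.52, 11.48 and 11.36 in moderate, and 10.39, 10.47, 10.41 and 10.56 in control colons. Severe and moderate values were mixed, and both stood clear of the controls. Pfkp rose 2.09-fold (log2 difference 1.06, SE 0.08, limma adjusted p = 4.79e-06), and its other probe sets gave 0.53 and 0.57. Tpi1, triose phosphate isomerase, rose by 0.45 (SE 0.06). Pfkl, the liver type of phosphofructokinase, differed by 0.26 (SE 0.11) and did not pass the test (limma adjusted p = 0.0753), though it did without moderate replicate 1 (adjusted p = 0.0181).

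Lower glycolysis, which harvests ATP, split into 3 genes that rose modestly and 1 that fell strongly. Pgk1, phosphoglycerate kinase, rose by 0.73 (SE 0.06, limma adjusted p = 5.26e-06), with 13.24, 13.21 and 13.24 in severe, 13.17, 13.21 and 13.11 in moderate, and 12.39, 12.50, 12.49 and 12.50 in control colons. Pkm, the pyruvate kinase of most tissues, rose by 0.64 (SE 0.08), and Pgam1, phosphoglycerate mutase, by 0.43 (SE 0.08). These shifts were small in size but wide against the spread of each group.

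Eno3, the enolase of muscle, went the other way. It read 7.62, 9.10 and 8.41 in severe, 10.64, 10.15 and 10.58 in moderate, and 11.28, 12.31, 11.97 and 11.80 in control colons. Every severe colon lay below every moderate colon and every moderate colon below every control colon. Eno3 fell 5.36-fold (log2 difference -2.42, SE 0.55, limma adjusted p = 0.00414) in inflamed against control colons, by 3.46 in severe and by 1.38 in moderate colons. Markers of smooth and striated muscle fell in the same colons, with a median difference of -1.50 over 13 genes in inflamed against control colons. The median was -1.69 in severe and -1.28 in moderate colons. The striated muscle genes Ckm, Acta1 and Myh2 differed by -0.81, -0.44 and -0.16 in inflamed against control colons, and of these Ckm alone passed. Severe colon 1 and control colon 1 had the lowest Eno3 but the highest muscle sum of their groups, 13.66 and 15.54. Among moderate colons, colon 2 was lowest in both. The part of muscle in the fall of Eno3 was not tested.

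Gapdh, glyceraldehyde phosphate dehydrogenase, could be read only from the arrays' quality-control probe sets and a probe set shared with pseudogenes. The control probe sets at its 3′ end, middle and 5′ end differed by 0.52, 0.55 and 0.40 in inflamed against control colons, as a description with no test. Those of actin, another control transcript, differed by 0.25, 0.32 and 0.29 in the same order. The level at the 3′ end exceeded that at the 5′ end by 0.29 ± 0.15 in inflamed (SD, n = 6) and by 0.17 ± 0.12 in control colons (SD, n = 4). For actin, the same excess was 0.83 ± 0.11 in inflamed and 0.87 ± 0.05 in control colons, and the groups overlapped in this excess for both transcripts.

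The handling of lactate and pyruvate was the group in which members of 1 family moved apart. Slc16a3, the carrier MCT4 that exports lactate, read 5.78, 5.49 and 6.19 in severe, 5.37, 5.79 and 5.25 in moderate, and 4.01, 4.14, 4.07 and 3.80 in control colons. The control values were near the lower quartile of all probe sets (3.82 to 3.92 by array), and signal over background was not examined. Slc16a3 rose 3.12-fold (log2 difference 1.64, SE 0.16, limma adjusted p = 1.77e-05). Slc16a1, the carrier MCT1 through which colonocytes take up butyrate, fell by 0.56 (SE 0.11, limma adjusted p = 0.0015). It read 12.03, 12.25 and 12.31 in severe, 11.84, 12.23 and 12.40 in moderate, and 12.74, 12.87, 12.71 and 12.61 in control colons, without overlap. A second, dim probe set of Slc16a1 differed by 0.06 in the opposite direction, and with the mean over both the difference was -0.25 and did not pass (adjusted p = 0.0763).

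Ldha, the lactate dehydrogenase subunit that favours lactate formation, rose by 0.30 (SE 0.06, limma adjusted p = 0.0027). Ldhb, the subunit that favours pyruvate, fell by 0.42 (SE 0.10, limma adjusted p = 0.00659), with 7.12, 6.90 and 7.09 in severe, 7.48, 7.10 and 7.09 in moderate, and 7.58, 7.36, 7.63 and 7.63 in control colons. Moderate colon 1 lay above the lowest control colon, so that Ldhb was the 1 called gene whose groups overlapped. Its other 3 probe sets differed by -1.20 to -0.82. Pdk1, a kinase that shuts off pyruvate dehydrogenase and a known HIF target, read 10.44, 9.85 and 10.43 in severe, 10.22, 9.87 and 10.40 in moderate, and 8.88, 9.51, 8.57 and 9.35 in control colons. Severe and moderate colons had like values, and Pdk1 rose 2.17-fold (log2 difference 1.12, SE 0.19, limma adjusted p = 0.000675). Its other 3 probe sets differed by 0.21 to 1.13.

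**Figure D3:**
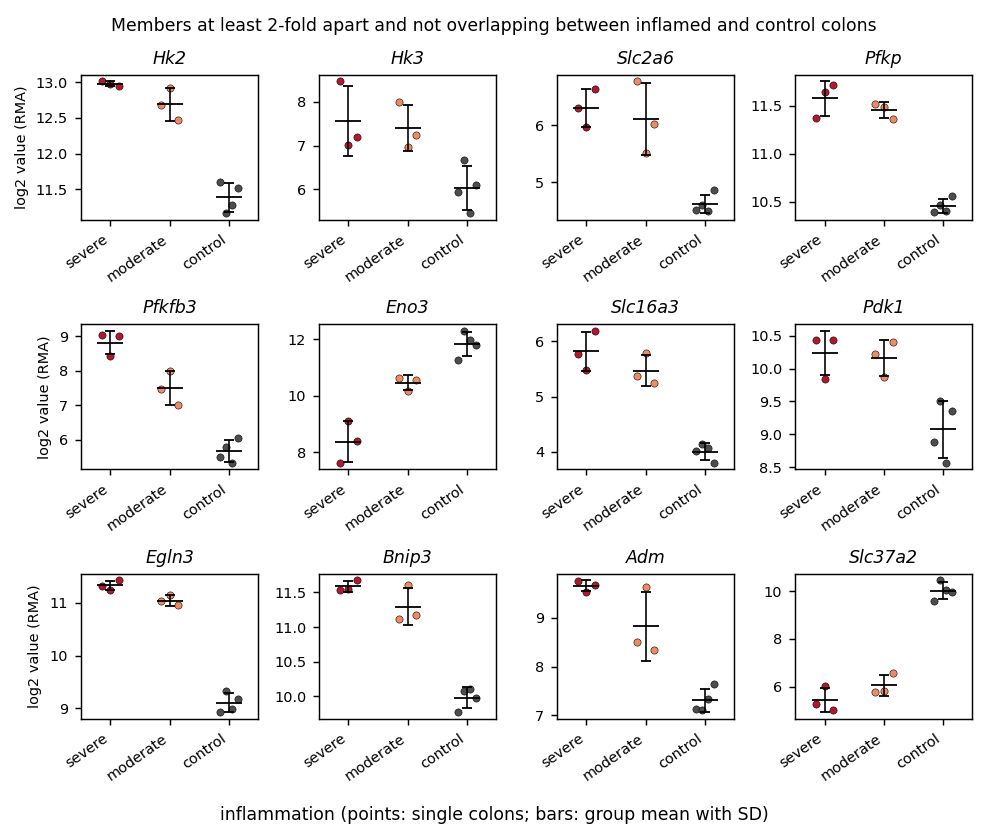
Log2 values (RMA, vertical axes) of the 12 genes at least 2-fold apart and without overlap between inflamed and control colons. Points are single colons in the severe (n = 3), moderate (n = 3) and control (n = 4) groups, and bars are the mean with SD. For Pfkfb3, Eno3, Hk2 and Egln3 the severe colons also lie apart from the moderate ones, whereas for Hk3, Slc2a6 and Pdk1 they are mixed.

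In oxygen sensing, 2 of 3 genes rose. Egln3, the prolyl hydroxylase PHD3 that is itself a known HIF target, had the smallest adjusted p of the 32 genes. It read 11.31, 11.24 and 11.42 in severe, 11.02, 11.14 and 10.95 in moderate, and 8.93, 9.34, 8.99 and 9.19 in control colons. The 3 groups were apart, with most of the distance between inflamed and control. Egln3 rose 4.20-fold (log2 difference 2.07, SE 0.11, limma adjusted p = 6.93e-07). Hif1a, the oxygen-regulated subunit of HIF, rose by 0.81 (SE 0.08, limma adjusted p = 1.83e-05), with 13.11, 12.99 and 12.97 in severe, 12.91, 12.96 and 12.80 in moderate, and 11.99, 12.32, 12.10 and 12.18 in control colons. HIF is controlled mainly at the protein level, which was not measured here. Vhl, the substrate-recognition part of the ligase that destroys HIF, differed by -0.14 (SE 0.08) and did not pass the test (limma adjusted p = 0.173), and a second, dim probe set differed by 0.11 in the opposite direction.

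Of 6 effector genes known to be induced in hypoxia, 4 rose. Bnip3, a mitochondrial protein that marks mitochondria for autophagy, read 11.54, 11.55 and 11.67 in severe, 11.11, 11.61 and 11.17 in moderate, and 9.77, 10.08, 10.11 and 9.98 in control colons. It rose 2.75-fold (log2 difference 1.46, SE 0.12, limma adjusted p = 7.73e-06). Moderate colon 2 was level with the severe colons, and the other moderate colons lay between them and the controls.

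Adm encodes adrenomedullin, a peptide that widens vessels and is made by many cell types. It read 9.75, 9.53 and 9.68 in severe, 8.51, 9.63 and 8.34 in moderate, and 7.13, 7.11, 7.34 and 7.64 in control colons. Again moderate colon 2 stood with the severe colons, and this colon also had the highest neutrophil sum of the moderate colons, 13.63 against 11.45 and 11.76. That sum rests most on S100a8, at 10.24, 13.22 and 11.06 in moderate colons 1, 2 and 3. Among moderate colons, S100a8, S100a9, Csf3r, Cxcr2, Mmp8 and Mmp9 were highest in colon 2, but Fpr2, Ngp and Camp in colon 1. Moderate colon 2 also had the lowest muscle sum of the moderate colons, 13.39, within the severe range, and their lowest macrophage sum, 13.19. The part of neutrophils or of other cells in the values of Adm was not tested. Adm rose 3.82-fold (log2 difference 1.93, SE 0.29, limma adjusted p = 0.000257), and its second probe set differed by 2.01.

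Ddit4, an inhibitor of mTORC1 that is induced by stress, rose by 0.95 (SE 0.17, limma adjusted p = 0.000919). It read 10.96, 10.55 and 10.92 in severe, 10.62, 10.74 and 10.23 in moderate, and 9.22, 9.78, 10.05 and 9.83 in control colons, without overlap. P4ha1, a subunit of the prolyl hydroxylase of collagen, rose by 0.50 (SE 0.11; 0.24 on its other probe set). P4ha2, another isoform of this subunit, differed by 0.05 (SE 0.18) and Ndrg1, a stress-response gene, by 0.22 (SE 0.20), and neither passed the test (limma adjusted p = 0.868 and 0.406). The 5 probe sets of Ndrg1 all gave 0.19 to 0.29.

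HIF is a known regulator of many of these genes, and their promoters were searched for its core motif. RefSeq windows of 300 bases, 250 before and 50 after the start of the gene, were at hand for 33 of the 35 genes (none for Slc2a3 and Ndrg1). The core ACGTG, on either strand, was in a window of 19 of 33 genes (57.6%), of 26.1% of the 14452 measured genes that have a window and of 21.8% of all 27025 genes. Counted per window it was in 51.3% of the 39 windows of these genes and 19.6% of all 32851 windows. The other core, GCGTG, was in 22 of 33 genes (66.7%), 47.8% of measured genes and 35.2% of all genes. The windows were also rich in CG, with a median of 21 CG pairs per window here, 16 in the windows of measured genes and 7 in all windows, and both cores contain a CG pair.

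Among the genes that rose, 15 of 22 with a window held ACGTG, against 2 of 8 that fell or did not pass the test (P4ha2 and Slc16a1). GCGTG was in 14 of those 22 and 6 of those 8. These counts are a description without a test, and a match is not evidence of binding. The windows shown are from some genes with large rises, all of which hold ACGTG, and from falling genes that differ in their matches. Not shown are Adm, Slc2a6, Pdk1 and Pfkp, which also rose at least 2-fold and held GCGTG but no ACGTG. Windows are read 5′ to 3′ on the strand of the gene from RefSeq on GRCm38.p6, with matches to either core on either strand in capitals. A CACGTG holds 2 overlapping ACGTG matches, 1 on each strand.
Egln3, chr12:54203825-54204124, minus strand: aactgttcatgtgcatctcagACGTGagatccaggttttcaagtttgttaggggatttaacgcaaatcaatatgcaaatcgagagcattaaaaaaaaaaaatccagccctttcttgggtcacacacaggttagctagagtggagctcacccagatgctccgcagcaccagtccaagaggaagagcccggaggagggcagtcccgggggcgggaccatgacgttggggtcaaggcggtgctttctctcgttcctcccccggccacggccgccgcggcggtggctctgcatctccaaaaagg
Bnip3, chr7:138909457-138909756, minus strand: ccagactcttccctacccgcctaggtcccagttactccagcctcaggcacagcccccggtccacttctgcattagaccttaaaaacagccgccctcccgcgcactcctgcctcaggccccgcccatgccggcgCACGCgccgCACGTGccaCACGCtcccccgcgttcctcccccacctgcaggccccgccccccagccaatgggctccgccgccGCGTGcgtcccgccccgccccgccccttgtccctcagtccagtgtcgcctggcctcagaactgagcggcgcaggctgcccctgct
Pfkfb3, chr2:11502041-11502340, minus strand: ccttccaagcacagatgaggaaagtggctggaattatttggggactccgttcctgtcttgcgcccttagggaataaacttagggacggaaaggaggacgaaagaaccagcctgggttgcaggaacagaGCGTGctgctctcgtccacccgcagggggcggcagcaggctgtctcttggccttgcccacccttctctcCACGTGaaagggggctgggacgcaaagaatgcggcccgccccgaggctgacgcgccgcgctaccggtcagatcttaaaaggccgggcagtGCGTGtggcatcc
Slc16a3, chr11:120948817-120949116, plus strand: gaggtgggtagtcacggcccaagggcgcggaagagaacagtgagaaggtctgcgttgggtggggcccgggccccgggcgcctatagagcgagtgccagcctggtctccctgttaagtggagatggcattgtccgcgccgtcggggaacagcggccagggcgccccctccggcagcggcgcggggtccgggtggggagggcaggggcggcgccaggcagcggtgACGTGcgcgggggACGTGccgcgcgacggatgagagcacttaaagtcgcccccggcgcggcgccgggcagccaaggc
Slc16a1, chr3:104638414-104638713, plus strand: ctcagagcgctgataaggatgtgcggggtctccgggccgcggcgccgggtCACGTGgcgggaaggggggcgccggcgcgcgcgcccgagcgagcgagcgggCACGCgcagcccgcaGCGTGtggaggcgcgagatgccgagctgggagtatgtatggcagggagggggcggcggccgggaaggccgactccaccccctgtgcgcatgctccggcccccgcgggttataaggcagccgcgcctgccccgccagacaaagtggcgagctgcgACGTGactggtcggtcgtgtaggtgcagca
Slc37a2, chr9:37255689-37255988, minus strand: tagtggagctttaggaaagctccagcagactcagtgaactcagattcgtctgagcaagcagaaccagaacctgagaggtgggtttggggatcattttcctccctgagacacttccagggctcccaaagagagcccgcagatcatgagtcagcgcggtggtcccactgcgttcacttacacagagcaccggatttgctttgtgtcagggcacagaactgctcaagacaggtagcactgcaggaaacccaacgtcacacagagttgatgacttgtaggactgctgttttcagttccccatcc
Egln3 held 1 match, an ACGTG on its own strand whose first base lies at -229 from the start. Bnip3 held 5 matches between -117 and -35, among them a CACGTG, and this Pfkfb3 window held 4, also with a CACGTG. Both carriers of the Slc16a family had ACGTG, 2 matches in the rising Slc16a3 and 3 in the falling Slc16a1, and Slc37a2 had no match to either core in this window. Hk2 held 2 ACGTG and Ldha 5 in 1 of its windows, so that the number of matches did not order the genes by the size of their rise.

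In the pentose phosphate pathway 2 of 3 measured genes rose. Pgd, phosphogluconate dehydrogenase, which yields NADPH in the oxidative branch, read 12.85, 12.70 and 12.94 in severe, 12.49, 12.66 and 12.65 in moderate, and 11.61, 11.69, 11.73 and 11.87 in control colons. It rose 1.99-fold (log2 difference 0.99, SE 0.09, limma adjusted p = 1.23e-05), and its 3 other probe sets differed by 0.91 to 1.07. Tkt, transketolase of the non-oxidative branch, rose by 0.58 (SE 0.08, limma adjusted p = 0.000117; 0.18 and 0.45 on its other probe sets). Taldo1, transaldolase of the same branch, read 11.59 to 11.92 in inflamed and 11.60 to 11.76 in control colons, a difference of 0.05 (SE 0.08, limma adjusted p = 0.628). The difference between Tkt and Taldo1 was not tested.

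Slc37a2, a sugar phosphate carrier of the endoplasmic reticulum, had the widest difference of the 32 genes. It read 5.28, 6.00 and 5.00 in severe, 5.76, 5.82 and 6.57 in moderate, and 9.60, 10.47, 10.08 and 9.98 in control colons. No inflamed colon came within 3 log2 units of a control colon. The gene fell 19.6-fold (SE 0.27 on the log2 scale, limma adjusted p = 1.51e-06). The epithelial marker sums were 16.66 to 16.93 in severe, 16.87 to 17.02 in moderate and 16.95 to 17.02 in control colons, but single epithelial markers went both ways. Aqp8 fell by 1.20, Car1 by 0.93 and Muc2 by 0.39 on the log2 scale, while Krt20, Cdh17 and Krt19 rose, and the part of epithelial cells in the fall of Slc37a2 was not tested.

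With the severity labels kept apart, severe colons had 23 genes higher and 4 lower than control colons (16.1% and 18.9% of all genes), and moderate colons 22 higher and 3 lower (13.2% and 16.7%), by limma at an adjusted p under 0.05. These comparisons share the 4 control colons. Slc2a3 and Ldhb were called in severe colons (limma adjusted p = 0.0179 and 0.00565) and did not pass in moderate colons (adjusted p = 0.133 and 0.0554). A call in severe alone does not show a difference from moderate, which was tested directly. Median log2 differences from control were 0.69 in severe and 0.55 in moderate colons over the 32 genes, and 0.02 and 0.03 over all genes.

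**Figure D4:**
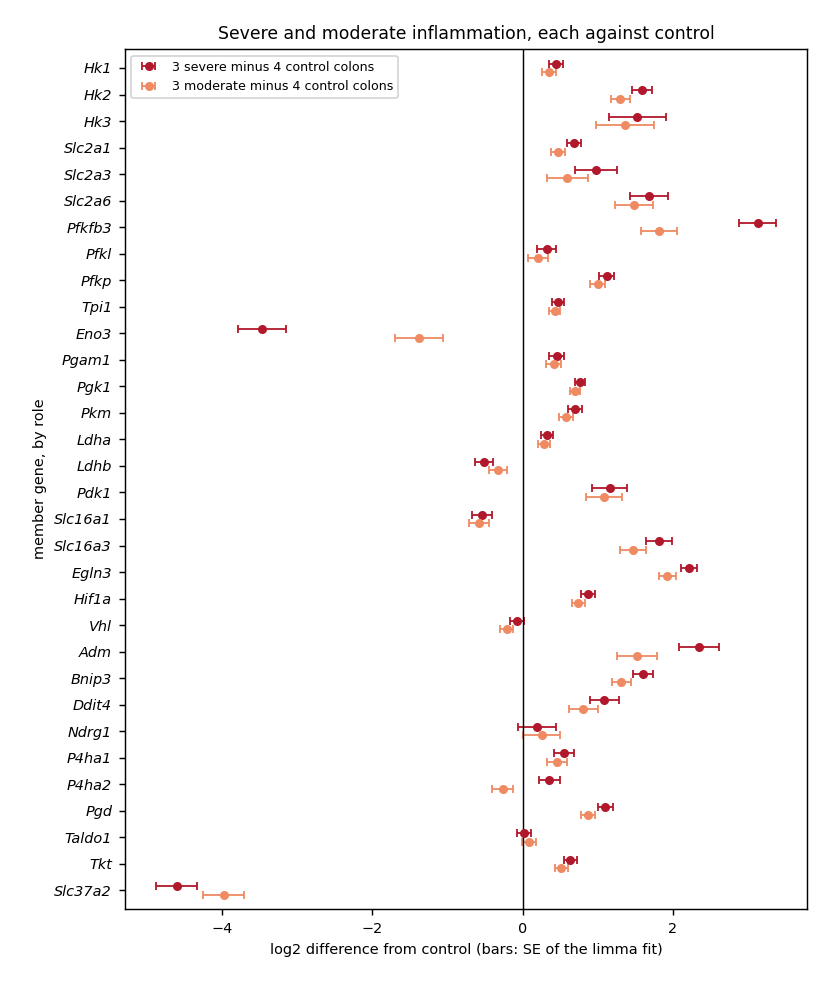
Log2 difference from the 4 control colons for the 3 severe (dark red) and the 3 moderate colons (orange), for each of the 32 genes by role, with bars for the SE of the limma fit. Most pairs of points lie close together, and the widest gaps are those of Eno3 and Pfkfb3.

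Directly between severe and moderate colons, none of the 32 genes was called higher (0% of all genes) and none lower (0%) by limma at an adjusted p under 0.05. At an unadjusted limma p under 0.05, 5 were higher (Pfkfb3, Egln3, Adm, P4ha2 and Pgd) and 1 was lower (Eno3), against 2.18% and 2.89% of all genes. The methods' t-test, unadjusted, found 3 higher and 1 lower, against 1.68% and 1.86% of all genes. Severe values lay entirely above moderate values in 10 genes (Slc2a1, Hk2, Pfkfb3, Pgk1, Pkm, Hif1a, Egln3, P4ha2, Pgd and Tkt) and entirely below in 1 (Eno3), against 3.81% and 4.18% of all genes.

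Eno3 had the widest gap, with 7.62, 9.10 and 8.41 in severe against 10.64, 10.15 and 10.58 in moderate colons (log2 difference -2.08, SE 0.34, limma adjusted p = 0.328). Muscle markers differed by a median of -0.33 between the same colons. Pfkfb3 differed by 1.31 (SE 0.26, limma adjusted p = 0.469), while the neutrophil markers differed by a median of 0.91 and the macrophage markers by 0.50. The moderate colon with the highest Pfkfb3, colon 2, was also the one with the highest neutrophil sum. Among moderate colons, Fpr2, Ngp and Camp were highest in colon 1 and the other neutrophil markers in colon 2. Moderate colon 2 also had the lowest macrophage and the lowest muscle sum of the moderate colons, 13.19 and 13.39. The part of neutrophils and of these other cells was not tested. P4ha2 read 6.05, 5.86 and 6.34 in severe and 5.30, 5.52 and 5.57 in moderate colons (log2 difference 0.62, SE 0.15, limma adjusted p = 0.739), with control colons between 5.56 and 5.99. Adm passed without moderate replicate 2 (log2 difference 1.23, adjusted p = 0.0344) and Eno3 without severe replicate 2 (log2 difference -2.44, adjusted p = 0.0457), so that 1 colon decided each.

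Other genes of these pathways, from 6 lists, had no common direction when pooled, and the lists differed among themselves. Of 100 measured, 27 rose and 27 fell in inflamed against control colons, with a median log2 difference of 0.02, beside the 18.5% and 21.2% over all genes. Of 14 other glycolytic enzymes, 5 rose and 2 fell. Bpgm, bisphosphoglycerate mutase, rose by 0.61 (SE 0.11) and Adpgk, a glucokinase that uses ADP, by 0.44 (SE 0.10). Pfkm, the muscle type of phosphofructokinase, fell by 0.64 (SE 0.08) and Eno2, the neuronal enolase, by 0.58 (SE 0.08). Pfkm thus differed in direction from Pfkp, and Eno2 fell like Eno3, in colons with lower muscle markers, whose part was not tested.

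The genes of gluconeogenesis and pyruvate entry ran mainly downward, with 10 of 18 lower and 2 higher. Pck1, the enzyme that commits carbon to gluconeogenesis, read 5.33 to 7.23 in inflamed and 9.49 to 9.89 in control colons and fell by 3.44 (SE 0.31, limma adjusted p = 1.03e-05). Pdp2, the phosphatase that switches pyruvate dehydrogenase on, fell by 1.75 (SE 0.13), where its opponent Pdk1 rose. Of the other kinases of that enzyme, Pdk4 fell by 1.18 (SE 0.17) and Pdk2 by 0.88 (SE 0.16), and Pdk3 rose by 0.41 (SE 0.10). Dlat, a core subunit of the enzyme, rose by 0.19 (SE 0.06).

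Among 15 other sugar and lactate carriers, 7 fell and 1 rose. Slc16a7, the carrier MCT2, fell by 1.88 (SE 0.26) and Slc2a13, a carrier of inositol, by 0.96 (SE 0.13), while Slc2a9, a carrier of urate, rose by 0.33 (SE 0.10). The glycogen list had 1 of 12 higher, Gys1, glycogen synthase, by 0.39 (SE 0.09). Its 3 lower genes were Gbe1, the branching enzyme, which fell by 1.04 (SE 0.09), Phkb, a subunit of phosphorylase kinase, which fell by 0.44 (SE 0.09), and Pygb, the brain phosphorylase, which fell by 0.44 (SE 0.07).

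Of 27 other oxygen-sensing and hypoxia genes, 12 rose and 3 fell. Ak4, a mitochondrial adenylate kinase, rose by 1.51 (SE 0.42) with overlap between groups, and Ero1a, an oxidase of protein folding, by 1.32 (SE 0.16) without. Plod1, a lysyl hydroxylase of collagen, fell by 0.62 (SE 0.12), Plin2, a coat protein of lipid droplets, by 0.47 (SE 0.13), and Epas1, which encodes HIF-2 alpha, by 0.34 (SE 0.11), where Hif1a rose. In the other pentose phosphate and nucleotide sugar genes, 6 of 14 rose and 2 fell. H6pd, which runs the oxidative branch inside the endoplasmic reticulum, rose by 1.23 (SE 0.19) and Me1, malic enzyme, another source of NADPH, by 0.85 (SE 0.29). Prps2, which makes the ribose donor of nucleotides, fell by 0.60 (SE 0.10) and Shpk, a kinase of sedoheptulose, by 0.47 (SE 0.11).

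**Figure D5:**
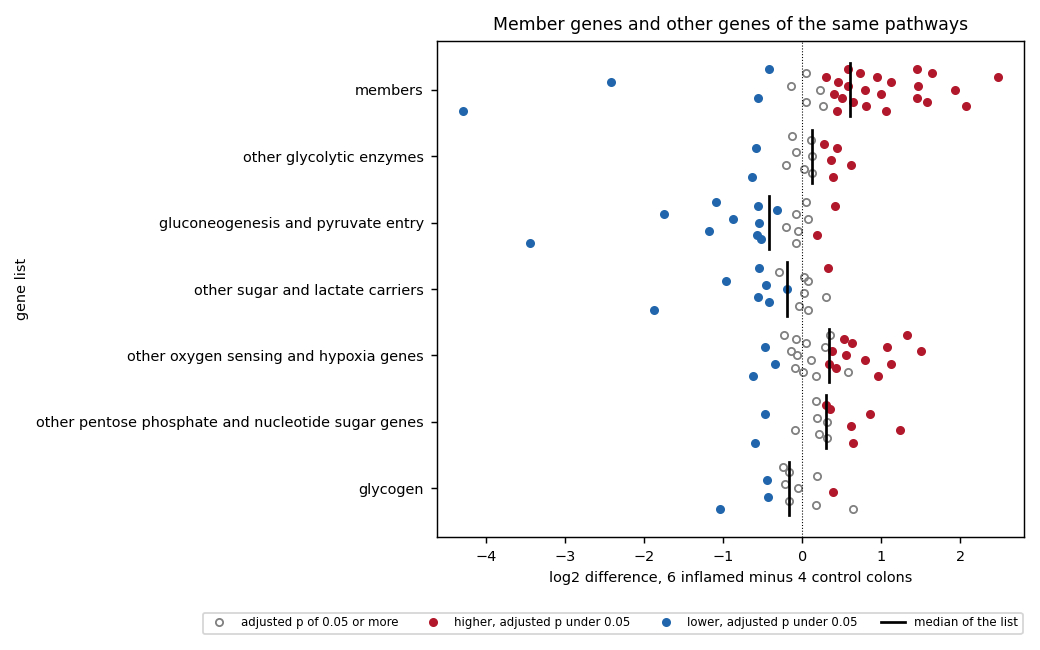
Log2 difference of 6 inflamed minus 4 control colons (horizontal axis) for the 32 measured members and for 6 lists of other genes from the same pathways. Each point is a gene, filled where its limma adjusted p was under 0.05 (red higher, blue lower) and open otherwise, and vertical bars are list medians. The members centre on 0.61, while gluconeogenesis and pyruvate entry centre on -0.42.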

How the data were processed

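RNA of 10 distal colons was labelled with biotin and hybridised to Affymetrix whole-genome mouse arrays, 1 per mouse. Each deposited value is the log2 level of a probe set. Per the submitters' processing notes, the authors obtained it with Affymetrix Expression Console and RMA, that is, background correction, quantile scaling of all arrays and a summary over the probes of each set. Versions are not given in the sources used here. Neither detection calls nor dates of scanning were used here. Extraction is given as Trizol in the labels and as a Qiagen kit in the methods.

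Probe sets annotated to 1 gene (34945 of 45101) gave 18193 genes, each with its probe set of highest mean, and symbols were checked against RefSeq. Of the 32 measured genes described, 12 had 1 probe set and 20 several. Two-sided moderated tests used limma 3.58.1 (lmFit, eBayes; R 4.3.3), adjusted by Benjamini-Hochberg across the 18193 genes, with calls at an adjusted p under 0.05. A fit of 2 groups set inflamed against control. A fit of 3 groups with a common spread set severe and moderate against control and against each other. The fits were tested on simulated data. Marker sums are log2 of summed linear values. Plots were made in Python 3.11.15 (matplotlib 3.10.9).

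The genes, lists and tests were chosen with earlier results of these data known. The rule for naming gave every colon's value to genes at least 2-fold apart, past the threshold and without overlap, and to those past the threshold in severe against moderate. It also names genes whose probe sets disagree, the widest and narrowest change per role, and the 2 largest rises and falls per pathway list. Every colon's values of other genes, the genes behind the severe against moderate counts, the single epithelial markers, Pdk2, Pdk4, Epas1 and Pygb were added after their values were seen. The labels call the samples biological replicates, 1 mouse each. The alternatives were other probe set choices, leaving out dim genes, other scaling, an intensity trend, array weights, the methods' t-test, the compared arrays alone, a replicate block, and each array left out in turn.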

Additional observations from a re-analysis of the deposited data

Results flagged for a closer look

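Of 64 groups of values tested for a single colon far from the rest (32 genes in the 6 inflamed and the 4 control colons), 3 had one. Chance alone gives about 1 in 20 of such groups, close to the share found. Slc2a3 was high in severe colon 1, at 7.84 against 6.44 to 6.91 in the other 5 inflamed colons, and this colon also had the highest neutrophil and macrophage sums, 14.65 and 14.60. Pkm was high in severe colon 3, at 11.54 against 11.24 to 11.28 in the other inflamed colons. Pgk1 was low in control colon 1, at 12.39 against 12.49 to 12.50 in the other control colons. No cause was tested.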

How the results depend on the processing

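Of 2812 values of the 32 genes under the alternatives, 2757 kept their side of the threshold and turned no called direction. Of these, 33 changed sign without a call. Of the other values, 24 lost the call, 28 gained it and 3 turned. For the methods' t-test without adjustment, an unadjusted p under 0.05 was counted as a call. Some of the 28 gains are of that kind, such as Pfkfb3 in severe against moderate colons. Calls that held in every alternative were 24 of 27 in inflamed, 22 of 27 in severe and 18 of 25 in moderate against control colons. Slc16a3 was too dim to enter the alternative without dim genes, so its calls are counted as held over the other alternatives alone. Slc2a3, Slc16a1 and Hk1 lost the first, these and Hk3 and P4ha1 the severe, and Ddit4, Hk1, Hk3, Ldha, P4ha1, Pdk1 and Slc16a1 the moderate call in at least 1 alternative. The 3 turned values are those of Hk1 with shared probe sets admitted, -0.0887 in inflamed, -0.101 in severe and -0.0767 in moderate against control colons, where a probe set shared with another gene replaced its own. Slc2a3 in severe against control colons was 0.17 (adjusted p = 0.215) without suffixed probe sets.

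With 1 array left out, moderate against control gave 3 to 5 genes lower (5 without moderate replicate 1). Its higher calls were lost for Hk1 without moderate replicate 1, Hk3 without control replicate 3 or moderate replicate 1, Ldha without moderate replicate 2, and P4ha1 without control replicate 4 or moderate replicate 1 or 2 (adjusted p = 0.0554 to 0.087). In the same way, severe against moderate gave 0 to 1 higher and 0 to 1 lower. The methods' t-test, unadjusted, gave 3 higher and 1 lower in severe against moderate. With arrays centred on the median, 56.4% of all calls in inflamed against control colons were higher, in place of 46.7%, while the 32 genes had 23 higher and 4 lower.

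Replicate numbers were not treated as pairs in the main fits. Deviations of same-numbered colons correlated by -0.08 to 0.06 between either inflamed group and control. Between severe and moderate colons the correlations were 0.29, 0.25 and -0.03 for replicates 1, 2 and 3. With the replicate block, 23 genes were higher and 4 lower in inflamed against control colons and 20 and 3 in moderate against control colons, and control replicate 4 then dropped out of the comparison. The number of arrays, 3 or 4 per group, limits the precision.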
